A study of Mus musculus with 16 samples.

Results

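The 4 mouse genes for glycine receptor subunits that were followed here, Glra1, Glra2, Glra3 and Glrb, were chosen by symbol from the 41388 Ensembl genes listed in each of 16 RNA-seq libraries, with their counts across the groups already known. The libraries came from primary cortical neurons of Swiss Webster embryos (embryonic day 16), transduced on day 5 in vitro with lentivirus and harvested on day 10. Each culture received 2 lentiviruses, one expressing exon 1 of huntingtin (Htt) and the other a short hairpin RNA (shRNA). The 4 groups, with n = 4 libraries each, were exon 1 with 25 glutamines (25Q) and a control shRNA against luciferase, exon 1 with 72 glutamines (72Q, an expanded tract of the kind that causes Huntington disease) with the same control shRNA, and 72Q with either Twist1 shRNA 1 or Twist1 shRNA 2. Every group therefore carried an exon 1 fragment and an shRNA, none was left untransduced, and no 25Q group analysed here received a Twist1 shRNA. Each group had 1 library in each of the experiments labelled exp107, exp108, exp109a and exp109b. The promoters that drive the lentiviral constructs are not stated in the labels.

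Glycine receptors are chloride channels opened by glycine and belong to the pentameric ligand-gated channel family. Alpha subunits (Glra1 to Glra4) bind glycine and can form channels alone, while the beta subunit (Glrb) joins them and binds gephyrin, the scaffold that holds receptors at inhibitory synapses. In the developing cortex Glra2 is known as the prevailing alpha subunit, whereas Glra1 is known as the adult spinal and brainstem form and Glra3 is found in spinal cord, retina and some forebrain neurons.

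Of the 4 genes, 3 had enough counts to be fitted (15103 genes in all passed the filter on low counts), and Glra1 did not. Glrb and Glra3 stood higher with both Twist1 shRNAs than with the control shRNA in 72Q neurons, without overlap between libraries: Glra3 by 3.26-fold and 2.37-fold, and Glrb by 45.4% and 27.8%. Libraries with an shRNA lay above the 72Q control without overlap in 14.2% of all genes for shRNA 1 and 10.6% for shRNA 2. Glra2, the most abundant alpha gene per length in every library, stood at 1.14-fold of its 25Q level in 72Q neurons, and at 0.918-fold and 1.08-fold of the 72Q control with the shRNAs. Since the genes were picked with these counts in view, their values are given as a description with standard errors and intervals, and without p-values.

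Glrb (ENSMUSG00000028020, chr3:80843599-80913660, minus strand of GRCm38) encodes the beta subunit. Glra2 (ENSMUSG00000018589, chrX:165129017-165327393, minus strand), Glra3 (ENSMUSG00000038257, chr8:55940460-56125429, plus strand) and Glra1 (ENSMUSG00000000263, chr11:55514238-55608198, minus strand) encode alpha subunits. The listed gene lengths, over which levels per kilobase are expressed, were 3337, 3150, 4567 and 2414 bases in that order. Glra1 overlapped annotated genes on the other strand, the antisense gene Gm12236 (1 count over all 16 libraries) and the pseudogene Gm12237 (0 counts), and the other members overlapped none. Runs of 50 bases also found in transcripts of another gene made up 3.74% of the Glra1 transcripts (all shared with Gm12236) and 2.65% of the Glrb transcripts, and none of those of Glra2 and Glra3.

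RefSeq promoter windows (build GRCm38.p6) were held for 3 of the 4 members, and the 250 bases before each start are shown because the data compare a knockdown of Twist1, a basic helix-loop-helix factor of the class that binds E-boxes (CANNTG, a pattern that reads the same on both strands). Each is written 5′ to 3′ on the gene's own strand, with any E-box letters in capitals. The window of Glrb is chr3:80913661-80913910 (minus strand), that of Glra2 is chrX:165327394-165327643 (minus strand) and that of Glra3 is chr8:55940168-55940417 (plus strand).
Glrb: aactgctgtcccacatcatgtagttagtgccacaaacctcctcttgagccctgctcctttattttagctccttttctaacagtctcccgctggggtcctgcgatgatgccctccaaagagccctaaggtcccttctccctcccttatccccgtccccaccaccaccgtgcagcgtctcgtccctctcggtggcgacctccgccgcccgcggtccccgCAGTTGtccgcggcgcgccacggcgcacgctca
Glra2: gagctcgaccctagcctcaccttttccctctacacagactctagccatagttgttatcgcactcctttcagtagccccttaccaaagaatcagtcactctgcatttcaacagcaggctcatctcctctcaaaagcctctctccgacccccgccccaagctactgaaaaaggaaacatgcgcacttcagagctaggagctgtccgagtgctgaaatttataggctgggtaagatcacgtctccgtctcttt
Glra3: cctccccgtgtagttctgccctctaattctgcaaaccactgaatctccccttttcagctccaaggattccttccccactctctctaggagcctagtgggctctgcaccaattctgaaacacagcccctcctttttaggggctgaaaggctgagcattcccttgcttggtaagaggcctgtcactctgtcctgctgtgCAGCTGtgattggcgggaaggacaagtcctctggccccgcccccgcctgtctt
Glrb and Glra3 each had 1 match, CAGTTG starting 33 bases before the start in Glrb and CAGCTG starting 53 bases before it in Glra3, and Glra2 had 0. At least 1 CANNTG was present in 66.2% of the 32851 RefSeq windows of the same length, and CAGCTG in 13.0%. The share of windows with CAGTTG was not computed. The E-box forms CATCTG and CATATG, present in 14.4% and 3.46% of windows, had 0 matches in those of Glrb, Glra2 and Glra3. The matches are letters in a window and not measured binding sites. GC content was 62.4% for Glrb, 50.4% for Glra2 and 56% for Glra3, against a median of 52.4% over all windows.

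Library totals ranged from 15814525 to 19533034 counts. Twist1 (ENSMUSG00000035799), the targeted gene, had 0 to 9 counts per library in 25Q, 54 to 87 in the 72Q control, 16 to 33 with shRNA 1 and 26 to 40 with shRNA 2. It was higher in 72Q than in 25Q (log2 fold change 3.47 ± 0.41 SE, adjusted p = 4.77e-12), and fell by 1.35 ± 0.21 (adjusted p = 1.52e-06) and 1.29 ± 0.21 (adjusted p = 2.97e-06) with the shRNAs. With so few counts in 25Q, Twist1 passed the filter on low counts only through the other groups. Its rise in 72Q was thus partly fixed by the filter. Mitochondrial transcripts made up 2.41 to 2.78% of counts in 25Q and 3.16 to 3.59% in the 72Q control, and 2.39 to 3.26% and 2.10 to 2.78% with the shRNAs. The part of this difference in the values below was not tested. All 5 pan-neuronal markers on the list (Tubb3, Map2, Rbfox3, Snap25, Syt1) and all 6 cortical excitatory markers were detected, and transcripts of astrocytes and of the oligodendrocyte lineage were present as well. In such mixed cultures fewer cells of a type and less RNA per cell cannot be told apart.

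Levels of the beta subunit were measured first, since Glrb was the most abundant member per length in every group. Deposited RPKM (counts scaled to library total and gene length) averaged 30.7 ± 2.00 (SD, n = 4) for Glrb in 25Q, against 4.67 ± 0.398 for Glra2, 0.570 ± 0.126 for Glra3 and 0.0641 ± 0.0360 for Glra1. Below, levels of a single gene are given in CPM, counts scaled to library size, with TMM factors, which correct for differences in composition between libraries. Libraries are listed in the order exp107, exp108, exp109a and exp109b.

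In the 25Q libraries Glrb stood at 118, 115, 102 and 109 CPM. In the 72Q control libraries it stood at 106, 112, 85.5 and 101 CPM. The 72Q library lay below the 25Q library of the same experiment in 4 of 4 experiments, while the 2 ranges overlapped. The fitted log2 fold change was -0.14 ± 0.048 (95% interval -0.23 to -0.040). This value depended on the scaling. The median over all genes was 0.030 with TMM factors and 0.16 with library totals alone, where Glrb was at -0.0018. Relative to the median gene, Glrb was at -0.17 under either scaling. Deposited RPKM, which are scaled to library totals, averaged 30.7 ± 3.87 in the 72Q control, the same to 3 digits as in 25Q. Without the 72Q control library of exp109a, the lowest of the 16, the log2 fold change was -0.096.

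With Twist1 shRNA 1 the Glrb level was 158, 156, 134 and 141 CPM. With Twist1 shRNA 2 it was 142, 128, 122 and 124 CPM. All 8 of these libraries exceeded every control library, of 25Q and 72Q alike, and the 2 shRNA groups overlapped each other. The log2 fold change against the 72Q control was 0.54 ± 0.047 (95% interval 0.44 to 0.64) for shRNA 1 and 0.35 ± 0.047 (0.26 to 0.45) for shRNA 2. Within experiments it ran from 0.47 to 0.65 and from 0.19 to 0.51. The order of group means was 101 ± 11.4 CPM in the 72Q control, 111 ± 6.90 in 25Q, 129 ± 9.13 with shRNA 2 and 147 ± 11.4 with shRNA 1, in which the first pair and the last pair of neighbours overlapped. Glrb thus lay above its 25Q level with either shRNA, by a log2 fold change of 0.40 ± 0.047 with shRNA 1 and 0.22 ± 0.047 with shRNA 2. Between the shRNAs, shRNA 1 was higher in 4 of 4 experiments, by 0.19 ± 0.046.

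**Figure D1:**
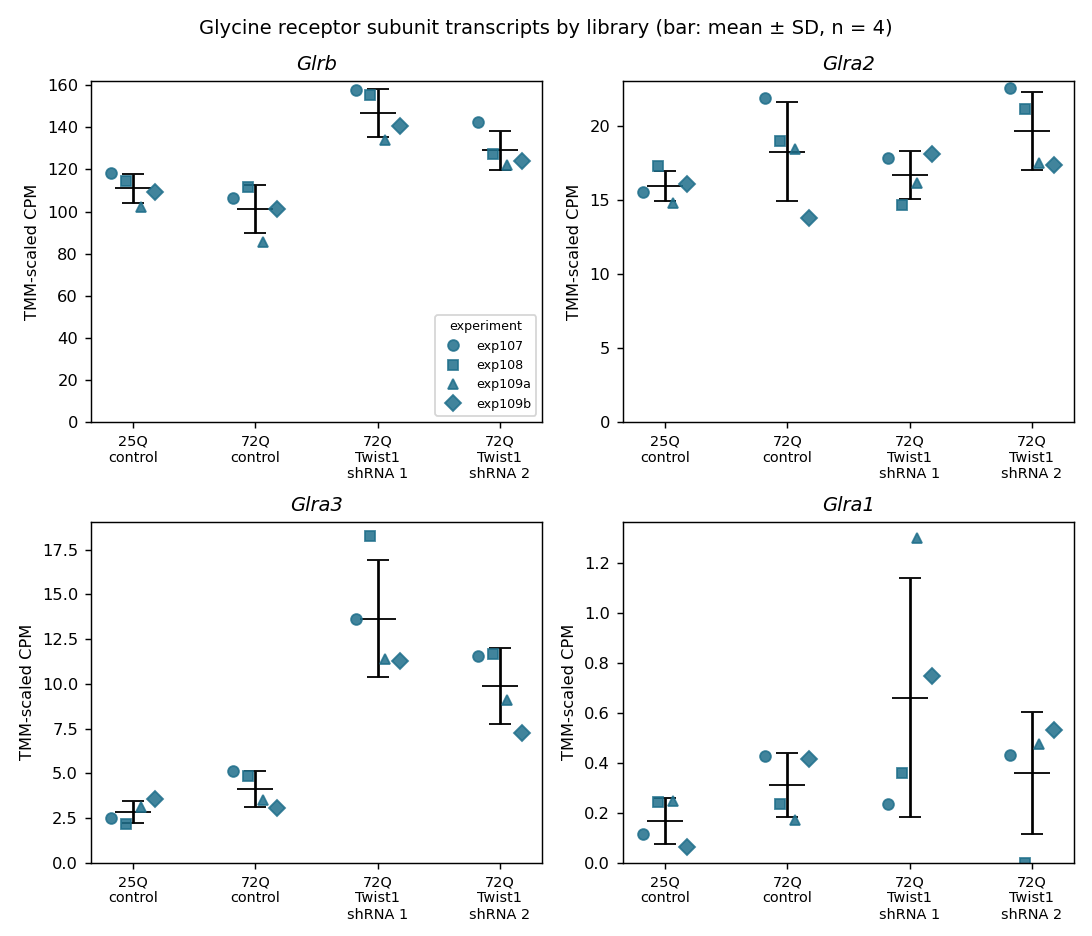
Level of each glycine receptor subunit gene in every library, in TMM-scaled CPM on a linear axis that starts at 0 and differs between panels; symbols mark the 4 experiments and bars the mean ± SD of n = 4. All Glrb and Glra3 libraries with a Twist1 shRNA lie above all 72Q control libraries, whereas the Glra2 groups given either shRNA overlap the 72Q control, and Glra1 reaches at most 1.30 CPM.

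Among the alpha subunits Glra2, the form known from immature neurons, was the most abundant per length. Its level in the 25Q libraries was 15.6, 17.3, 14.8 and 16.1 CPM. In the 72Q control it was 21.9, 19.0, 18.5 and 13.8 CPM, so that the exp109b library was the lowest of all 16 and the exp107 library was exceeded by 1 other. The log2 fold change of 0.19 ± 0.099 (95% interval -0.016 to 0.39) was positive in 3 of 4 experiments. Without the exp109b library of the 72Q control it was 0.30, and without the exp107 library of 25Q it was 0.10. The libraries of the 72Q control thus spread more (SD 3.36 CPM) than those of 25Q (SD 1.03 CPM).

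Glra2 levels were 17.9, 14.7, 16.2 and 18.2 CPM with Twist1 shRNA 1. They were 22.6, 21.2, 17.5 and 17.4 CPM with Twist1 shRNA 2. Both groups overlapped the 72Q control. The log2 fold change was -0.12 ± 0.098 (95% interval -0.32 to 0.077) with shRNA 1, lower in 3 of 4 experiments, and 0.11 ± 0.095 (-0.086 to 0.30) with shRNA 2, higher in 3 of 4. Without the 72Q control library of exp109b these values were -0.24 and -0.0065, so the sign with shRNA 2 rests on that library. Without the shRNA 1 library of exp108 the first value was -0.030. Against 25Q, the shRNA 2 libraries were higher (0.30 ± 0.097, higher in 4 of 4 experiments). They did so without overlap by a narrow margin, the lowest at 17.4 CPM and the highest of 25Q at 17.3. Such ranges were seen in 21.2% of all genes. The shRNA 1 libraries differed from 25Q by 0.064 ± 0.10. The group means ran from 15.9 ± 1.03 CPM in 25Q through 16.7 ± 1.62 with shRNA 1 and 18.3 ± 3.36 in the 72Q control to 19.7 ± 2.63 with shRNA 2, and each neighbouring pair overlapped.

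Glra3, an alpha subunit found in fewer neurons, was the member that differed most between the groups. In 25Q its libraries stood at 2.49, 2.14, 3.13 and 3.56 CPM, from 35 to 56 counts each. In the 72Q control they stood at 5.12, 4.84, 3.50 and 3.05 CPM, from 59 to 84 counts each. The exp107 and exp108 libraries of 72Q were about 1 log2 unit above their 25Q partners (1.01 and 1.14), while the difference was 0.16 in exp109a and -0.22 in exp109b, and the group ranges overlapped. The fitted log2 fold change was 0.52 ± 0.19 (95% interval 0.12 to 0.92). It was 0.29 without the 25Q library of exp108, and leaving out any 1 of the 8 libraries gave 0.29 to 0.74.

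With Twist1 shRNA 1 the Glra3 libraries stood at 13.6, 18.3, 11.4 and 11.3 CPM. With Twist1 shRNA 2 they stood at 11.6, 11.7, 9.10 and 7.27 CPM. The lowest of these 8 libraries exceeded the highest of the 8 control libraries, and the shRNA groups overlapped each other. Log2 fold changes against the 72Q control were 1.70 ± 0.15 (95% interval 1.39 to 2.02) for shRNA 1 and 1.24 ± 0.15 (0.92 to 1.56) for shRNA 2. Each experiment gave a difference of 1.39 to 1.89 with shRNA 1 and of 1.16 to 1.35 with shRNA 2, with SDs of 0.23 and 0.080 against 0.66 for the differences between 72Q and 25Q. Against 25Q the same libraries were 4.66-fold and 3.38-fold higher (log2 2.22 ± 0.17 and 1.76 ± 0.17). The order of group means was 2.83 ± 0.635 CPM in 25Q, 4.13 ± 1.01 in the 72Q control, 9.89 ± 2.11 with shRNA 2 and 13.6 ± 3.26 with shRNA 1, with overlap within the lower pair and within the upper pair but not between the pairs. Glra3 was higher with shRNA 1 than with shRNA 2 in 4 of 4 experiments, by 0.46 ± 0.13.

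Glra1, the adult spinal form, was close to the limit of counting and was not fitted. Its libraries held 2, 4, 4 and 1 counts in 25Q and 7, 4, 3 and 8 in the 72Q control. With shRNA 1 they held 4, 7, 23 and 12 counts, and with shRNA 2 they held 8, 0, 10 and 10. All groups overlapped, and the exp109a library held 23 of the 46 counts with shRNA 1. The other sums were 11 in 25Q, 22 in the 72Q control and 28 with shRNA 2. Corrected for depth, the sum was 2.04 times the 25Q sum in the 72Q control (95% exact interval 0.950 to 4.67), 2.09 times the 72Q sum with shRNA 1 (1.23 to 3.64) and 1.23 times it with shRNA 2 (0.680 to 2.26). These intervals cover counting error only and not the spread between libraries. Glra4, the alpha gene outside the set, had 0 to 2 counts in each library and 18 in all.

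**Figure D2:**
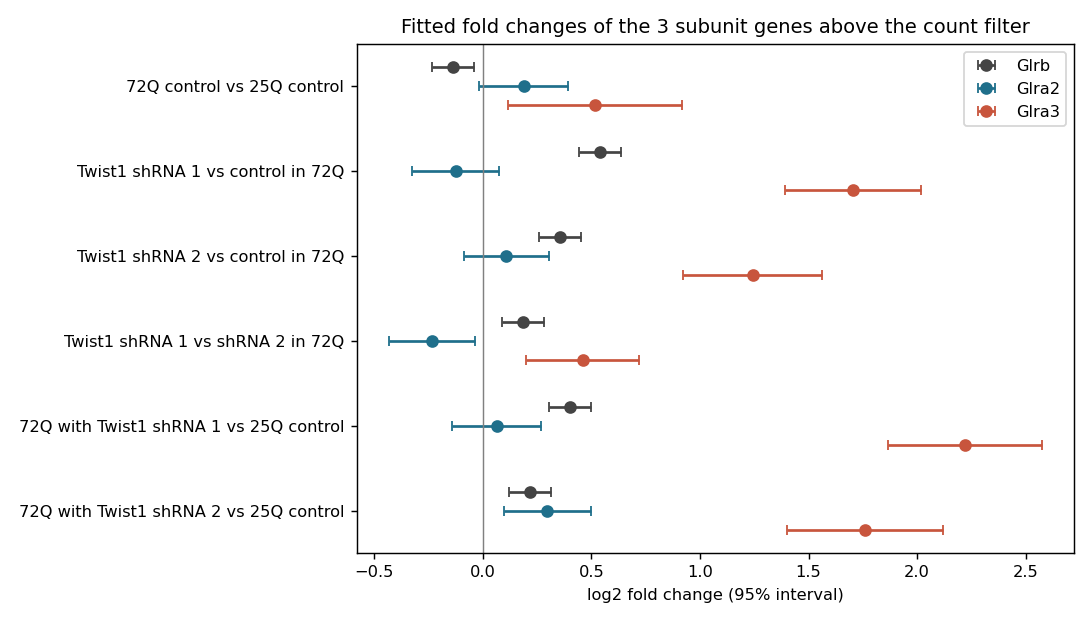
Log2 fold changes of Glrb, Glra2 and Glra3 (points) with 95% intervals (bars) in 6 comparisons; the vertical line marks no change. Glra3 reaches 1.70 and 1.24 with the Twist1 shRNAs and Glrb 0.54 and 0.35, while both Glra2 intervals in those comparisons include 0.

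The calls over all genes give the background for the 3 fitted members. In 72Q against 25Q, 57.1% of the 15103 genes were called at an adjusted p under 0.05 (29.3% higher and 27.8% lower), and of the 3 members Glra3 was called higher and Glrb lower. With shRNA 1, 46.3% of genes were called (22.7% higher and 23.6% lower), and with shRNA 2 41.8% (20.2% higher and 21.5% lower). Glrb and Glra3 were called higher in each. Ranges that lay above 25Q without overlap, as those of Glrb and Glra3 did with both shRNAs and those of Glra2 with shRNA 2, were seen in 18.9% of genes with shRNA 1 and 21.2% with shRNA 2. Of the called genes 51.4% were higher in 72Q than in 25Q, a share that was 69.7% with library totals alone, and 48.5% were higher with shRNA 2 (65.3% with library totals alone). Between the shRNAs 53.2% of genes were called (27.3% higher with shRNA 1 and 25.9% lower), among them Glrb and Glra3 as higher and Glra2 as lower. Against 25Q, 57.4% were called with shRNA 1 (28.1% higher, with Glrb and Glra3 among them) and 63.3% with shRNA 2 (31.4% higher, with all 3 members among them). The rule used these contrasts, so nothing is read from the counts of members. The comparisons of both shRNAs and of 25Q with the 72Q control share the same 4 control libraries. The calls of Glra3 and Glrb in 72Q against 25Q were not kept throughout: Glra3 lost its call without the exp107 library of either group (log2 fold changes 0.40 without that of 25Q and 0.42 without that of 72Q) or the exp108 library of 25Q (0.29), and Glrb without the exp109a library of 72Q (-0.096), with upper-quartile factors (-0.074) and with library totals alone (-0.0018). Glra2 gained calls without the exp109b library of the 72Q control, higher in 72Q (0.30) and lower with shRNA 1 (-0.24), and was also called higher in 72Q with upper-quartile factors (0.25) and with library totals alone (0.32). Its call between the shRNAs (-0.23 ± 0.096) was lost without the exp107, exp108 or exp109a library of shRNA 1 or the exp107 or exp108 library of shRNA 2, with values of -0.33 to -0.14 over all 8 omissions, and its call with shRNA 2 against 25Q was lost without the exp107 library of 25Q (0.21).

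The balance between alpha subunits was computed per length in each library, from deposited RPKM. Glra3 made up 10.7 ± 2.47% of the summed alpha transcripts in 25Q and 13.1 ± 1.43% in the 72Q control. It made up 34.6 ± 7.35% with shRNA 1 (28.7 to 45.1%) and 25.05 ± 2.51% with shRNA 2 (21.5 to 27.5%). The share of Glra2 was correspondingly 87.2 ± 2.44% and 84.6 ± 1.47% in the control groups and 61.8 ± 6.35% and 72.8 ± 1.34% with the shRNAs. Per length Glra2 was the larger in all 16 libraries, the closest being the shRNA 1 library of exp108 (52.6% Glra2 and 45.1% Glra3). By counts, which are not per length, that library held more Glra3 (54.7% of alpha counts) than Glra2 (44.0%). Summed alpha RPKM was 5.35 ± 0.379 in 25Q, 6.92 ± 1.17 in the 72Q control, 8.65 ± 0.400 with shRNA 1 and 9.13 ± 1.19 with shRNA 2. The 72Q control (5.41 to 8.15) overlapped each of the other groups, and the shRNA groups (8.09 to 9.04 and 7.91 to 10.3) overlapped each other but not 25Q (5.00 to 5.81). These sums are scaled to library totals, under which the median of all genes lay 0.16 (72Q control), 0.13 (shRNA 1) and 0.22 (shRNA 2) log2 units above 25Q. Glrb RPKM over this alpha sum was 5.74 ± 0.415 in 25Q, 4.52 ± 0.925 in the 72Q control, 5.12 ± 0.248 with shRNA 1 and 4.54 ± 0.415 with shRNA 2, so the beta transcript exceeded the alpha transcripts together per length in every group.

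**Figure D3:**
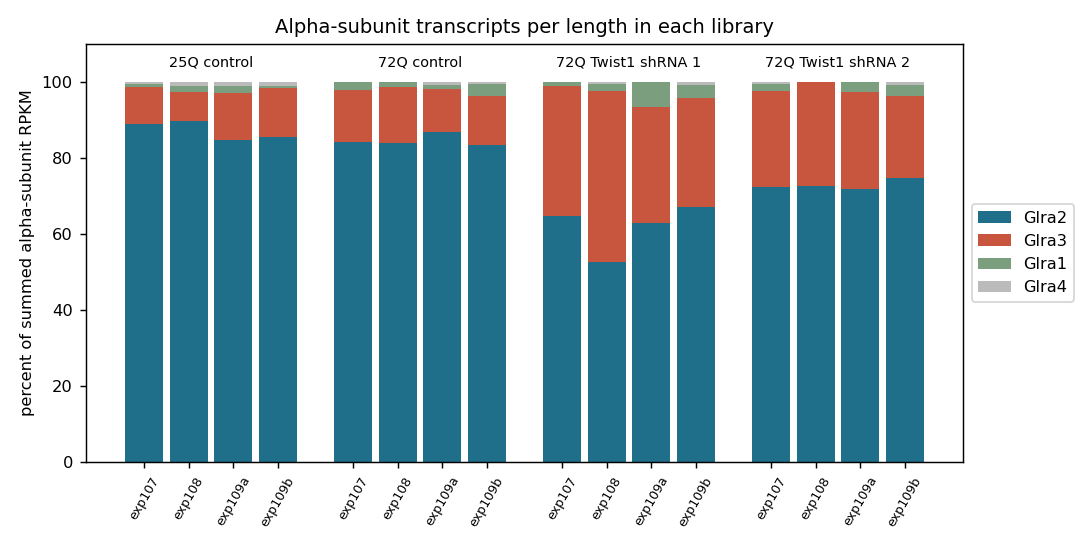
Share of each alpha gene in the summed alpha-subunit RPKM (percent, stacked to 100) in each of the 16 libraries, grouped by condition. Glra3 takes 28.7 to 45.1% with Twist1 shRNA 1 and 21.5 to 27.5% with shRNA 2, and Glra2 is the largest share in every library.

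Other genes of glycinergic transmission were read from a list of 40 genes sorted by role, of which 38 were tested. In 72Q against 25Q, 13 rose and 19 fell, against 29.3% and 27.8% of all genes. With shRNA 1, 6 rose and 10 fell, and with shRNA 2, 13 rose and 11 fell. In either direction, 84.2%, 42.1% and 63.2% of the tested list were called in 72Q, with shRNA 1 and with shRNA 2. The shares over all genes were 57.1%, 46.3% and 41.8%, so the list lay near the share of all genes with shRNA 1. The counts by role below stand against these same shares. The median log2 fold change of the list was -0.12, -0.030 and -0.041 in these comparisons, beside 0.030, -0.0054 and 0.0015 over all genes. With library totals alone, 17 rose and 16 fell in 72Q, with a median of 0.011 against 0.16 for all genes, and 15 rose and 6 fell with shRNA 2. Both shRNA comparisons use the same control libraries, so values of a gene in them are given side by side.

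Of the 17 genes that anchor, cluster or traffic inhibitory receptors, 6 rose and 10 fell in 72Q. Gphn, which encodes the gephyrin scaffold that binds Glrb, stood at 133 ± 5.03 CPM in 25Q, 149 ± 8.97 in the 72Q control, 158 ± 13.6 with shRNA 1 and 178 ± 14.4 with shRNA 2. It rose in 72Q (0.17 ± 0.042, adjusted p = 0.00137) and with shRNA 2 (0.25 ± 0.042, adjusted p = 1.25e-05), and did not pass with shRNA 1 (0.086 ± 0.042, adjusted p = 0.094). The largest falls in 72Q were those of Nbea, the trafficking protein neurobeachin (-0.69 ± 0.044, adjusted p = 7.56e-14), Pacsin1, of the syndapin family that binds gephyrin (-0.57 ± 0.055, adjusted p = 6.08e-10), and Vasp, an actin regulator (-0.52 ± 0.071, adjusted p = 2.83e-07). Pacsin1 rose with both shRNAs (0.68 ± 0.055 and 0.15 ± 0.055), and Vasp fell again with both (-0.51 ± 0.077 and -0.21 ± 0.074). The shRNA 2 call of Pacsin1 (adjusted p = 0.0289) was lost without the exp108 or exp109b library of the 72Q control or the exp107 or exp108 library of shRNA 2, at log2 fold changes of 0.11 to 0.19 over all 8 omissions. That of Vasp (adjusted p = 0.0227) was lost without the exp107 or exp109a library of the 72Q control or the exp107, exp108 or exp109b library of shRNA 2, at -0.25 to -0.15.

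Among 4 tested genes of glycine transport, Slc6a5, the neuronal transporter GlyT2 that marks glycinergic neurons, rose in 72Q from 10 to 113 counts summed over 4 libraries (log2 2.66 ± 0.48, adjusted p = 4.65e-09), a depth-corrected count ratio of 11.6 (95% exact interval 6.06 to 24.7). With so few counts in 25Q, Slc6a5 passed the filter on low counts only through the other groups. It fell with shRNA 1 to 55 counts (-0.90 ± 0.25, adjusted p = 0.00137) and rose with shRNA 2 to 287 (1.18 ± 0.19, adjusted p = 2.06e-06), and the difference between the shRNAs was -2.08 ± 0.23 (adjusted p = 2.92e-10). Slc6a9, the mainly glial transporter GlyT1, fell in 72Q (-0.28 ± 0.057, adjusted p = 9.54e-05) from 42.2 ± 5.22 CPM to 34.9 ± 6.45.

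Among 10 genes that make or break down glycine, 4 rose and 3 fell in 72Q. The serine hydroxymethyltransferases went apart, Shmt1 (cytosolic) rising by 0.71 ± 0.12 (adjusted p = 4e-06) and Shmt2 (mitochondrial) changing by -0.44 ± 0.056 (adjusted p = 8.39e-08). Gcat, which cleaves a threonine product to glycine, fell in 72Q (-0.45 ± 0.095, adjusted p = 0.00016) and rose with both shRNAs (0.47 ± 0.094 and 0.60 ± 0.092), from 8.61 ± 0.811 CPM to 12.0 ± 0.498 and 13.1 ± 0.639.

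Chloride handling sets the direction of current through these receptors, and 4 of its 5 listed genes fell in 72Q while 1 rose. Slc12a5, the chloride extruder KCC2, fell from 408 ± 22.0 to 325 ± 21.6 CPM (-0.33 ± 0.041, adjusted p = 7.39e-08), and the importer gene Slc12a2 (NKCC1) from 61.1 ± 5.68 to 46.6 ± 4.65 CPM (-0.39 ± 0.060, adjusted p = 2.12e-06). The channel gene Clcn2 fell most (-0.59 ± 0.075, adjusted p = 8.59e-08) and rose with both shRNAs (0.21 ± 0.077 and 0.25 ± 0.076). The call with shRNA 1 was lost without the exp107 or exp108 library of the 72Q control or the exp107 or exp109b library of shRNA 1 (0.16 to 0.25 over all 8 omissions), and that with shRNA 2 without the exp108 library of the 72Q control (0.20). Stk39, a kinase that acts on these cotransporters, fell in 72Q (-0.15 ± 0.049, adjusted p = 0.00917) and again with shRNA 1 (-0.52 ± 0.051, adjusted p = 8.31e-10) and shRNA 2 (-0.15 ± 0.049, adjusted p = 0.0167). This last call was lost without the exp108 or exp109a library of the 72Q control or the exp109a or exp109b library of shRNA 2 (-0.17 to -0.11). With library totals alone 3 of the 5 chloride genes were called lower in 72Q. Nova1, a neuronal splicing factor known to act on Glra2 transcripts, rose in 72Q (0.61 ± 0.066, adjusted p = 3.82e-09). Its paralog Nova2 fell in 72Q (-0.19 ± 0.068, adjusted p = 0.0192), a call lost without the exp109b library of either group (-0.25 to -0.14 over all 8 omissions), and fell with both shRNAs (-0.32 ± 0.069 and -0.47 ± 0.069).

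**Figure D4:**
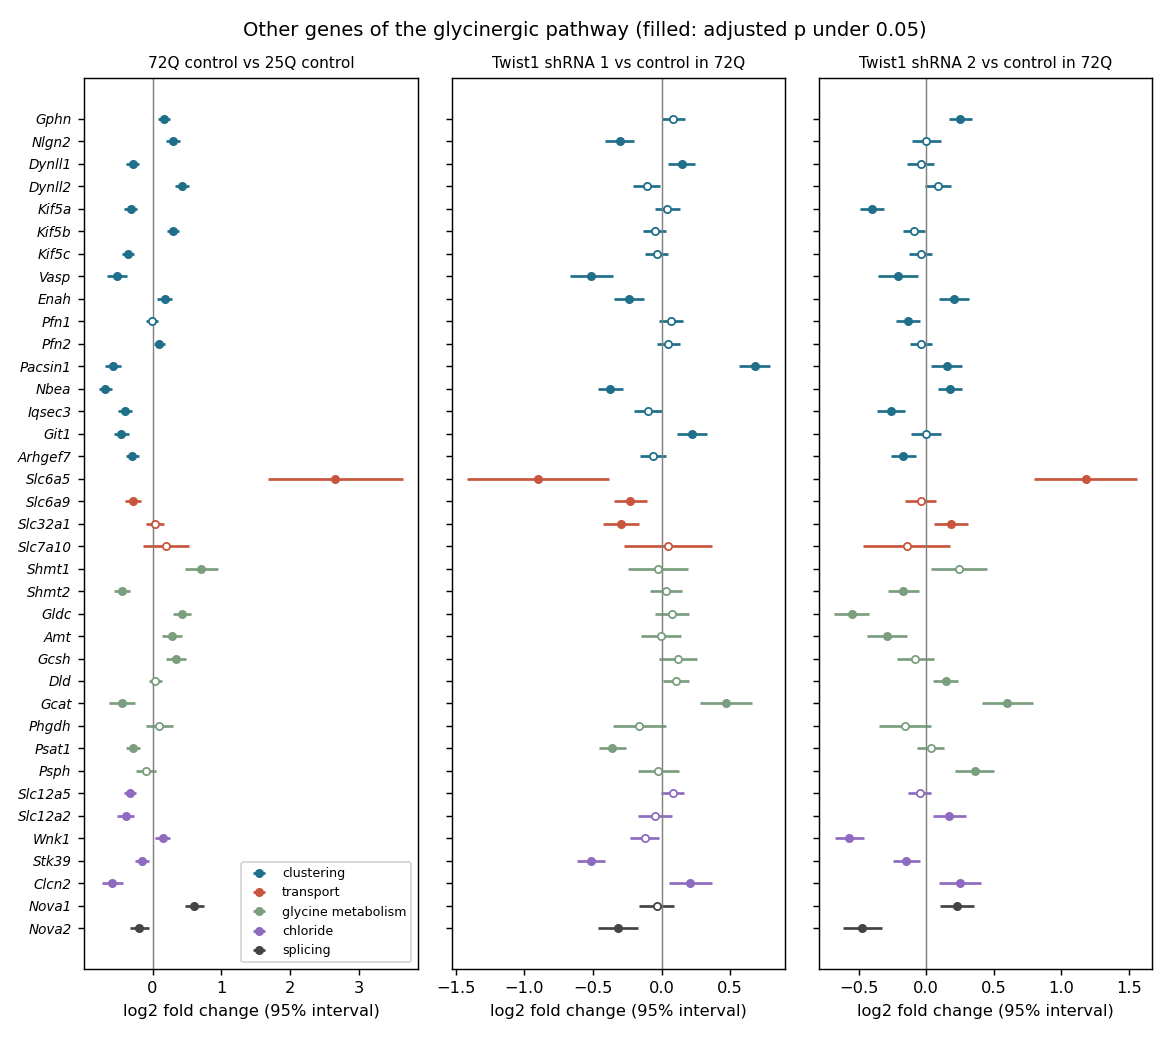
Log2 fold changes (points) with 95% intervals (bars) of 37 of the 38 tested genes of the glycinergic list, by role, in 72Q against 25Q and with each Twist1 shRNA; filled points passed an adjusted p of 0.05 and the horizontal axes differ between panels. Slc6a5 stands farthest out, at 2.66, -0.90 and 1.18.

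Markers of neurons and of other cell types moved with the groups and are given beside the members. Of all genes, 29.3% were called higher and 27.8% lower in 72Q, 22.7% and 23.6% with shRNA 1, and 20.2% and 21.5% with shRNA 2. In lists this short, counts near those shares are not read as results about a cell type. The 5 pan-neuronal markers summed to 6405 to 7288 CPM in 25Q, 4148 to 5059 in the 72Q control, 4519 to 5060 with shRNA 1 and 4161 to 4962 with shRNA 2. All 5 fell in 72Q, 1 rose with shRNA 1, and 2 rose and 3 fell with shRNA 2. The 6 cortical excitatory markers all fell in 72Q, from a summed 1190 to 1286 CPM in 25Q to 483 to 700 CPM, and stood at 739 to 916 with shRNA 1 (2 rose, 1 fell) and 503 to 659 with shRNA 2 (1 fell). The 5 striatal markers summed to 121 to 133 CPM in 25Q, 30.8 to 52.9 in the 72Q control, 62.1 to 84.1 with shRNA 1 and 47.3 to 67.4 with shRNA 2, and 3 of 5 fell in 72Q and 4 of 5 rose with each shRNA. Glrb and Glra3 were higher in the same shRNA groups and stood above their 25Q levels. The striatal sums with either shRNA stood below those of 25Q, and a link to the members was not tested. Markers on other lists below also rose with both shRNAs. The 6 spinal and hindbrain glycinergic markers, which include Slc6a5, summed to 0.318 to 0.797 CPM in 25Q, 3.33 to 5.68 in the 72Q control, 1.88 to 3.24 with shRNA 1 and 6.82 to 10.4 with shRNA 2. Lbx1 and Ptf1a of that list were at 0 in all 25Q libraries, Ptf1a at 0 with shRNA 1 and Pax8 at 0 with shRNA 2, and 3 of the 6 genes were tested, all of which rose in 72Q and with shRNA 2, while 1 fell with shRNA 1. At these 25Q levels the tested genes passed the filter on low counts only through the other groups. A rise of all of them in 72Q was thus partly fixed by the filter, and nothing is read from it. Astrocyte markers summed to 972 to 1186 CPM in 25Q, 1110 to 1394 in the 72Q control, 1252 to 1472 with shRNA 1 and 816 to 1063 with shRNA 2, and 4 of the 5 rose in 72Q, 1 rose with shRNA 1 and 4 fell with shRNA 2. The 5 markers of the oligodendrocyte lineage summed to 798 to 907 CPM in 25Q, 834 to 962 in the 72Q control, 704 to 793 with shRNA 1 and 597 to 699.5 with shRNA 2, and 1 rose in 72Q, 3 fell with shRNA 1 and 4 fell with shRNA 2. The 3 inhibitory neuron markers summed to 244 to 315 CPM in 25Q, 151 to 238 in the 72Q control, 149 to 227 with shRNA 1 and 193 to 280 with shRNA 2. Of these 3, 2 fell in 72Q, 1 rose and 2 fell with shRNA 1, and 2 rose with shRNA 2. Markers of Cajal-Retzius cells, early neurons of the cortical surface, summed to 137 to 207, 81.2 to 144, 129 to 162 and 123 to 180 CPM in the same order of groups, and of the 5 markers 2 rose and 2 fell in 72Q, 1 rose with shRNA 1 and 3 rose with shRNA 2. Microglial markers summed to 8.46 to 9.96, 8.25 to 9.69, 7.01 to 8.92 and 12.6 to 13.0 CPM, and of the 2 tested among 5 none passed in 72Q or with shRNA 1 and 1 rose with shRNA 2. Endothelial, mural and meningeal markers summed to 7.52 to 12.9, 2.63 to 6.89, 6.09 to 9.27 and 5.25 to 10.05 CPM, with Cldn5 at 0 in all 25Q libraries, and of the 4 tested among 5, 3 fell in 72Q and 2 rose with each shRNA. The part of these cell populations in the members' values was not tested.

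The nearest tested protein-coding gene on each side of a member was examined next. The AMPA receptor gene Gria2, 40.8 kb from Glrb, fell in 72Q (-1.0003 ± 0.050, adjusted p = 4.89e-16). It did not pass with shRNA 1 (0.063 ± 0.050, adjusted p = 0.324) or shRNA 2 (0.11 ± 0.050, adjusted p = 0.0773). Glrb was higher with both shRNAs, and any link between a member and its neighbours was not tested. On the other side of Glrb, Pdgfc at 123 kb fell in 72Q (-0.92 ± 0.17, adjusted p = 2.64e-05) and did not pass with either shRNA (0.29 ± 0.18 and 0.16 ± 0.18). Hpgd, a prostaglandin-degrading enzyme gene 169 kb from Glra3, fell in 72Q (-1.68 ± 0.21, adjusted p = 1.24e-08), opposite in sign to Glra3, and rose with shRNA 1 (1.92 ± 0.21, adjusted p = 6.50e-10) but did not pass with shRNA 2 (0.48 ± 0.24, adjusted p = 0.0719). Gpm6a, at 880 kb on the other side, fell in 72Q (-0.72 ± 0.050, adjusted p = 4.47e-13), rose with shRNA 1 (0.29 ± 0.050, adjusted p = 2.14e-05) and fell with shRNA 2 (-0.14 ± 0.050, adjusted p = 0.0243). Beside Glra2, neither Fancb (132 kb) nor Gemin8 (843 kb) passed in 72Q against 25Q, and Fancb rose with shRNA 1 (0.47 ± 0.19, adjusted p = 0.0348) but did not pass with shRNA 2 (0.27 ± 0.20). Beside Glra1, G3bp1 lay at 9.40 kb and fell in 72Q by 0.12 ± 0.048 (adjusted p = 0.0314) and with shRNA 1 by 0.22 ± 0.048 (adjusted p = 0.000354), and did not pass with shRNA 2 (-0.026 ± 0.048). On the other side of Glra1 the AMPA receptor gene Gria1, at 1403 kb, fell in 72Q (-1.46 ± 0.072, adjusted p = 8.15e-12) and rose with shRNA 1 (0.60 ± 0.073, adjusted p = 1.81e-06) and shRNA 2 (0.50 ± 0.073, adjusted p = 2.26e-05).

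Likeness of pattern was measured as the root mean square difference in log2 CPM over the 16 libraries, each gene centred on its own mean, among 12743 genes. Closest to Glrb was Atp6v0e2, a subunit gene of the vacuolar proton pump, at 0.067 (the spread of Glrb itself around its mean was 0.23), with 423 ± 20.4, 384 ± 32.0, 557 ± 33.8 and 494 ± 46.0 CPM in 25Q, the 72Q control, shRNA 1 and shRNA 2. Nr1d2, Abhd17b, Ggct and Trove2 followed at 0.10 to 0.11. Closest to Glra3 were Spry3 and Cnn2, both at 0.44, then Tspan2, Nyap2 and Lipa, up to 0.50, against a spread of Glra3 of 0.94. Nyap2 had 34.0 ± 5.08 CPM in 25Q, 46.6 ± 5.49 in the 72Q control, 97.4 ± 8.58 with shRNA 1 and 75.5 ± 9.33 with shRNA 2, the same order of groups as Glra3. Cnn2, Tspan2 and Lipa shared this order, and Spry3 did not. The genes were picked for likeness in these same libraries, so a shared order follows largely from that choice. Closest to Glra2 was Cacnb2, a calcium channel subunit gene, at 0.12, followed by Zfp869, Acbd6, Elovl5 and Cyhr1, up to 0.14, against a spread of 0.20.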

How the data were processed

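Alignment used STAR 2.0.4b on GRCm38 and gene assignment used featureCounts 1.45 (Subread), per the submitters' processing notes, after Ribo-Zero removal of ribosomal RNA, per the labels' protocols. No source used here states the strand setting, the treatment of reads with several matches or the gene annotation, so reads of overlapping or near-identical genes cannot be told apart. The authors deposited raw counts, CPM (counts scaled to the library total) and RPKM (CPM per kilobase) for each gene. The raw counts entered all fits, deposited RPKM gave levels per length and the balance of the subunits and entered no test, and deposited CPM matched the counts within 2.5e-11. Symbols came from GENCODE M21, which named 97.47% of the listed identifiers.

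Genes were filtered with filterByExpr and fitted with the quasi-likelihood test of edgeR 4.0.16 (R 4.3.3, TMM factors, robust estimation, prior count 2) over all 16 libraries, with terms for group and for experiment. P-values were adjusted over 15103 genes by the Benjamini-Hochberg method, and a gene was called under 0.05. Fold changes are log2 ± SE with 95% intervals. The edgeR fit was tested on simulated counts. Deviations from the group means were correlated between libraries that share an experiment, at 0.223 to 0.612 across genes in each pair of groups. The experiment label therefore served as the block. Means for libraries of different experiments were -0.157 to -0.110. Deviations cancel out within a group, so these negative means follow from the positive values and are no separate support. Against each shRNA group, 3 of the 4 25Q libraries correlated best with their own experiment, and in the other pairs of groups all 4 did. Replicate pairs differed by 2.85 to 22.6 times sampling noise, and none was counted as a duplicate. Whether replicates were separate cultures is not stated beyond the experiment labels, and p-values then cover the spread between these libraries, which may be technical.

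The members, the gene lists, the rule for named genes and the tests were chosen with earlier results of these data known. The rule named, in each role of the list, up to 3 called genes of largest change in 72Q and up to 3 of largest mean change called with both shRNAs in 1 direction, the nearest tested protein-coding genes, and the 5 genes of most similar pattern with at least 1 CPM. 1 gene of the list that the rule named is counted in the totals and is not reported here by name. Gphn and Nyap2's levels were chosen for mention after their values were seen. Alternatives were other scalings, no filter, DESeq2 1.42.0, other blocks, fits of 2 groups and the omission of each library.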

Additional observations from a re-analysis of the deposited data

How the results depend on the processing

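Members moved by less than the SD of the differences between experiments in 279 of 288 recomputed values, and no called member changed sign. This is a loose yardstick. In 72Q against 25Q that SD exceeded the value itself for Glra3 (0.66 beside 0.52) and Glra2 (0.30 beside 0.19). Glra3 at 0.29 there, and Glra2 at -0.0065 with shRNA 2 against the 72Q control (0.11 with all libraries), were thus counted as kept. With library totals alone, Glrb was at -0.0018 in 72Q against 25Q, 0.10 between the shRNAs, and 0.53 and 0.43 for shRNA 1 and shRNA 2 against 25Q, and Glra2 was at 0.50 for shRNA 2 against 25Q. The median of all genes was then 0.16, -0.077, 0.13 and 0.22 in these comparisons, and 36.5%, 66.5% and 72.3% of called genes were higher in the last 3 (51.3%, 48.9% and 49.7% with TMM). With upper-quartile factors Glrb was at 0.49 and 0.32 for the shRNAs against 25Q, with 61.2% and 61.5% of called genes higher. Leaving out 1 library gave 1.18 to 1.33 for Glra3 with shRNA 2. By counts alone, not per length, Glra3 made up 14.9%, 18.0%, 43.6% and 32.8% of alpha reads in 25Q, the 72Q control, shRNA 1 and shRNA 2. Glra1 had 0 to 23 counts per library and was not fitted.

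Without the replicate block by experiment, 4561 genes were called with shRNA 1 (6999 with it) and 3621 with shRNA 2 (6307), and calls on the glycinergic list were 10, 11 and 18 for shRNA 1, shRNA 2 and the difference between them (16, 24 and 28 with it). The title number pairs 25Q and 72Q libraries of different experiments, save for the exp109b libraries, which share a number. With a block by this number (correlations -0.218 to 0.260, the exp109b pairs included), 12 genes of the list were called with shRNA 2. Without the block the calls of Glra3 and Glrb in 72Q against 25Q and of Glra2, Glra3 and Glrb between the shRNAs were lost. The title-number block also lost those of Glrb in 72Q (-0.14) and of Glra2 between the shRNAs (-0.23), DESeq2 the latter (-0.24), and library totals alone that of Glrb between the shRNAs. Of 29 calls of named pathway genes, 21 held in every setting run, and 8 were lost without the block, among them that of Slc6a9 in 72Q. With library totals alone the calls of Nova2 in 72Q and of Vasp and Stk39 with shRNA 2 were lost. Why the values moved was not tested.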
